A study of Mus musculus with 6 samples.

Results

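Immediate early response genes were described in bulk RNA sequencing of the retinal pigment epithelium (RPE), the pigmented cell layer behind the photoreceptors, from 3 Abca4KO and 3 WT mice. The 10 genes were taken by symbol, Fos, Fosb, Jun, Junb, Egr1, Nr4a1, Ier2, Atf3, Dusp1 and Btg2, and all 10 were found among the 54532 genes of the table. The Abca4KO mice (Abca4-/-) carry the Jackson allele Abca4tm1Ght, and the WT mice are of the Jackson strain 129S1/SvlmJ, so that line and genotype change together. Both groups share an Rpe65 Leu450 background, a standard diet and 12 h of cyclic light, and both were sampled 5 h after light onset, 1 mouse per library. The age of the mice and the time between death and lysis of the tissue are not given in the sources used here.

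Immediate early genes are transcribed soon after a cell receives a signal and need no new protein for it. Growth factors, calcium, cAMP and stress reach them through MAP kinases, serum response factor and CREB, a protein that binds the cAMP response element (CRE). Their mRNAs are short-lived, so their level follows recent signalling, and many of the products are transcription factors or brakes on the same pathways. In cultured rat RPE cells, genes of this class such as Egr1 are known to be induced while outer segments are being ingested.

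The promoter windows of 6 of the genes are shown so that their letters can be read. Whether these letters bear on the levels below was not tested. They run from 250 bases before to 50 bases after the annotated start and come from RefSeq on build GRCm38.p6 (the assembly also called mm10). There 8 of the 10 genes have a window, all but Egr1 and Ier2. The start is RefSeq's own, which for Nr4a1 and Atf3 lies well inside the gene span that the deposited table gives. Capitals mark TGACG, the core of the CRE, on either strand, which joined with its reverse complement gives the palindrome TGACGTCA. The windows are chr17:26508423-26508722 (minus strand) for Dusp1, chr15:101266596-101266895 (plus) for Nr4a1, chr8:84978699-84978998 (minus) for Junb, chr1:134079106-134079405 (minus) for Btg2, chr12:85473640-85473939 (plus) for Fos and chr1:191183284-191183583 (minus) for Atf3. Dusp1, Nr4a1, Junb and Btg2 were taken as the most abundant of the genes with a searched motif, so that these hold one by choice. Fos and Atf3 were added after their values were seen, and the windows of Fosb and Jun are not printed.
Dusp1: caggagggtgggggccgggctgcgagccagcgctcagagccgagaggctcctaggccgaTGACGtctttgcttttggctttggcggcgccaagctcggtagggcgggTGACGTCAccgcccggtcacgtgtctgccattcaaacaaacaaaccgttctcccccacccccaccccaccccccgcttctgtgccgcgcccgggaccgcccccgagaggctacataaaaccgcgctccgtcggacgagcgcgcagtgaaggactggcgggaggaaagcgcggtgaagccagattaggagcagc
Nr4a1: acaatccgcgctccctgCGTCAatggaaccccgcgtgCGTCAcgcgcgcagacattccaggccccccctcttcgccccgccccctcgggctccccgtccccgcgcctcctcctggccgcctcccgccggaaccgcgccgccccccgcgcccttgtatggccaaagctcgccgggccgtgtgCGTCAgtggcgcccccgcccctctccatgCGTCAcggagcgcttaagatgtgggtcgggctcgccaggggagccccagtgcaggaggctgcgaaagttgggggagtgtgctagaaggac
Junb: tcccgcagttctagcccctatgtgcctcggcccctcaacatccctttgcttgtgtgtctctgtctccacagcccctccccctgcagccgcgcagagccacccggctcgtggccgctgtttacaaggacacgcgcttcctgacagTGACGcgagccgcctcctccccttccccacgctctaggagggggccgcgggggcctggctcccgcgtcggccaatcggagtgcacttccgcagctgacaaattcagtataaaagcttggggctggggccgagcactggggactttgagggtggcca
Btg2: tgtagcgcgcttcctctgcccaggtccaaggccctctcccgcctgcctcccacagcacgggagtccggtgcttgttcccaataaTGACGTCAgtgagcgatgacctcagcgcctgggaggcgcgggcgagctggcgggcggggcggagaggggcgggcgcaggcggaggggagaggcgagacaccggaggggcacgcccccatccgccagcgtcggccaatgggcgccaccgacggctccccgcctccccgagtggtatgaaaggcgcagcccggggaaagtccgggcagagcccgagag
Fos: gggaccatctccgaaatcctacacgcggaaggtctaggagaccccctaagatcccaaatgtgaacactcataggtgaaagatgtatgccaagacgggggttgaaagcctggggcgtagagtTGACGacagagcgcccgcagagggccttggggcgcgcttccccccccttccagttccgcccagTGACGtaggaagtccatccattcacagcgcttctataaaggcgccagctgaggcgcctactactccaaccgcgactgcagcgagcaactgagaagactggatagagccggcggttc
Atf3: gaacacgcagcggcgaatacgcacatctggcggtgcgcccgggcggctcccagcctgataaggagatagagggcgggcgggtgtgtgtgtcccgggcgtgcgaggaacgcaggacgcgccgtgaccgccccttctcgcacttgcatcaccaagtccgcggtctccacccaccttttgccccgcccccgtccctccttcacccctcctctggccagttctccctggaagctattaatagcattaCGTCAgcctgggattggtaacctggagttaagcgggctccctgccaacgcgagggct
The core TGACG or its reverse complement occurred in 7 of the 8 windows, the exception being Jun, against 20.8% of the 32817 promoter windows in the RefSeq table. Dusp1 and Btg2 held the whole palindrome TGACGTCA, which begins 143 and 166 bases before their starts and overlaps the core on both strands, and 1.79% of all windows hold it. Dusp1 has a further core 191 bases before its start. In Fos the core begins 129 and 66 bases before the start, in Junb 106, in Fosb 60 and in Atf3 7, while Nr4a1 has 4 copies of the reverse complement, 233, 213, 69 and 40 bases before its start. The AP-1 motif TGANTCA (7.81% of all windows) and the CArG box bound by serum response factor (1.63%), searched on both strands, had no match in the 8 windows. Sites outside these windows, and any site of Egr1 and Ier2, were not searched, so the genes may still hold such motifs. These matches are letters in a short window and do not show binding.

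Total counts lay between 17047286 and 19841307 per library. The library labels matched the targeted gene: Abca4 measured 32.6, 39.1 and 36.8 CPM (counts scaled to a common library size) in Abca4KO 1, 2 and 3, against 955, 932 and 968 CPM in WT 1, 2 and 3. The 15 RPE markers, Rpe65 and Ttr among them, summed to between 40289 and 42749 CPM in Abca4KO and between 34558 and 44009 CPM in WT, lowest in WT 2. In a bulk sample, fewer cells of a type and less RNA per cell cannot be told apart. WT 2 stood apart from the other libraries: 18 interferon response genes summed to 3667 CPM there, against 269 to 301 CPM in the other WT libraries and 296 to 477 CPM in Abca4KO. For the log2 fold changes of the 10 genes and the medians of related genes, values without it are given where they differ in direction or by over 1.5 times.

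None of the 10 genes differed between Abca4KO and WT at an adjusted p under 0.05 in edgeR's quasi-likelihood test, and in all 10 the libraries of the genotypes overlapped. In the same fit 8 of 17340 tested genes (0.0461%) passed, 6 higher (0.0346%) and 2 lower (0.0115%) in Abca4KO, so that a count of 0 among 10 is close to the background. Over all tested genes, 12.8% had no overlap between Abca4KO and WT. At an unadjusted p under 0.05 the count among the 10 was also 0 in edgeR and in DESeq2, and 2 in limma-voom with sample weights, beside 7.02% of all genes in edgeR, 6.4% in DESeq2 and 16.9% in limma-voom. The log2 fold changes (Abca4KO minus WT) lay between -0.57 for Fos and 0.45 for Atf3. Of the 10, 8 were negative and 2 positive, with a median of -0.22, beside a median of -0.01 over all tested genes. Without WT 2 the median was 0.08, with 4 negative and 6 positive, so the direction of the median rested on that library. What the libraries did share was order among mice: WT 2 was the highest library for 8 of the 10 genes, and within Abca4KO the highest was Abca4KO 3 for 8 of the 10.

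**Figure D1:**
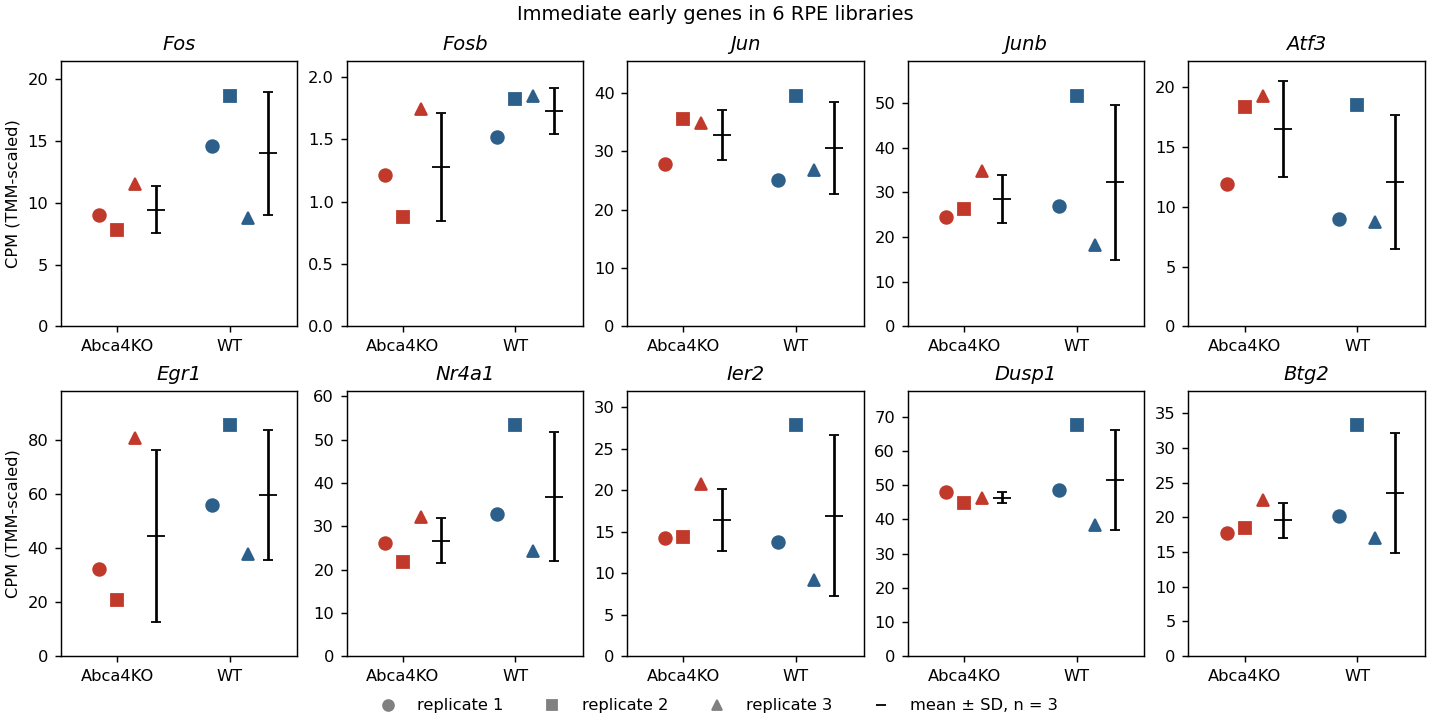
Level of each gene in CPM (vertical axis, starting at 0) in the Abca4KO libraries (red, left) and the WT libraries (blue, right), with symbols for the replicate number and the mean ± SD (n = 3) beside the points. The genotypes overlap for every gene, and WT 2 (blue square) is the highest of the 6 libraries for all but Fosb and Atf3.

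Fos and Fosb encode the FOS partners of the AP-1 transcription factor, which cannot pair with themselves and bind DNA with a JUN partner. Fos (ENSMUSG00000021250, chromosome 12, 85473890 to 85477273, plus strand, mm10) measured 9.03, 7.79 and 11.5 CPM in Abca4KO 1, 2 and 3, against 14.6, 18.7 and 8.76 CPM in WT 1, 2 and 3. The Abca4KO libraries were close to one another, while WT 3 lay among them and the other WT libraries above them. Its log2 fold change of -0.57 (SE 0.29, 95% interval -1.26 to 0.11) had an adjusted p of 0.759 in edgeR and was the most negative of the 10, and it was -0.31 (SE 0.27) without WT 2. Fosb (ENSMUSG00000003545, chromosome 7, 19302696 to 19310051, minus strand) was the rarest of the 10, with 17 to 34 raw counts per library, for which counting error alone reaches 24.3% of a value. It measured 1.22, 0.877 and 1.74 CPM in Abca4KO 1, 2 and 3, against 1.52, 1.83 and 1.85 CPM in WT 1, 2 and 3. Here Abca4KO 2 was lowest and Abca4KO 3 lay between the WT libraries (log2 fold change -0.44, SE 0.39, 95% interval -1.34 to 0.47, adjusted p = 0.861 in edgeR). Both genes stayed negative under each of the 16 other settings tried, between -0.81 and -0.29 for Fos and between -0.72 and -0.19 for Fosb, and passed the threshold under none of them.

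Jun and Junb encode JUN partners of AP-1, which bind as pairs among themselves or with a FOS protein. Jun (ENSMUSG00000052684, chromosome 4, 95049034 to 95052222, minus strand) measured 27.9, 35.7 and 34.9 CPM in Abca4KO 1, 2 and 3, against 25.1, 39.6 and 26.9 CPM in WT 1, 2 and 3. WT 2 was highest and the other WT libraries were lowest, so that the Abca4KO libraries lay inside the WT range. Jun had a log2 fold change of 0.10 (SE 0.19, 95% interval -0.34 to 0.55, adjusted p = 0.941 in edgeR), and 0.34 (SE 0.14, adjusted p = 0.438) without WT 2. Junb (ENSMUSG00000052837, chromosome 8, 84974484 to 84978718, minus strand) measured 24.6, 26.3 and 34.7 CPM in Abca4KO 1, 2 and 3, against 26.9, 51.6 and 18.3 CPM in WT 1, 2 and 3. The WT libraries differed 2.82-fold among themselves and enclosed the Abca4KO libraries, which differed 1.41-fold. Its log2 fold change was -0.18 (SE 0.35, 95% interval -1.01 to 0.65, adjusted p = 0.947 in edgeR) and turned to 0.34 (SE 0.21) without WT 2. Both counts are uncertain where genes overlap on the other strand, since the sources used here do not say whether strand was used in counting. The gene span of Jun shares 689 bases with that of its antisense gene Junos (111 counts over the 6 libraries, against 3553 for Jun). That of Junb shares 351 bases with that of the peroxiredoxin gene Prdx2 (25591 counts, against 3402 for Junb). Between transcripts, the longest match was shorter, 232 bases for Jun and Junos and 176 bases for Junb and Prdx2.

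Atf3 encodes a stress-induced member of the ATF family that pairs with JUN proteins and can repress transcription. It had the most positive difference of the 10. Atf3 (ENSMUSG00000026628, chromosome 1, 191170296 to 191218039, minus strand) measured 11.9, 18.4 and 19.3 CPM in Abca4KO 1, 2 and 3, against 9.01, 18.5 and 8.71 CPM in WT 1, 2 and 3. All Abca4KO libraries lay above WT 1 and WT 3, and WT 2 lay among the higher ones. With all libraries the log2 fold change was 0.45 (SE 0.33, 95% interval -0.33 to 1.23, adjusted p = 0.837 in edgeR). Without WT 2 it was 0.90 (SE 0.23, unadjusted p = 0.00479), with an adjusted p of 0.279 in edgeR, in a fit where 11 genes (0.0617%) passed. Without both WT 2 and Abca4KO 1 it was 1.07 (SE 0.17) and passed (adjusted p = 0.0401 in edgeR), in a fit of 2 against 2 libraries in which 190 genes (1.09%) passed. Those left out were the highest WT and the lowest Abca4KO library for Atf3. Leaving them out could only widen the difference, so this pass is no separate support for it. Over the 16 other settings the value stayed positive, between 0.27 and 1.07, with adjusted p between 0.0401 and 0.981. Atf3 overlaps the small RNA gene Gm24748, which had 0 counts.

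**Figure D2:**
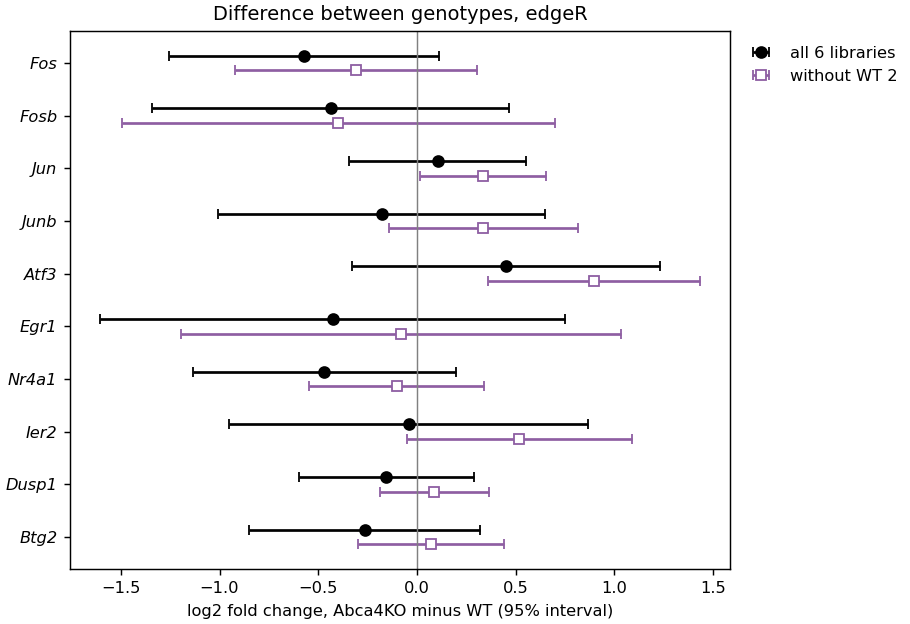
Log2 fold change, Abca4KO minus WT (horizontal axis), with its 95% interval for each gene, in the fit over all 6 libraries (black circles) and in the fit without WT 2 (open squares). With all 6 libraries every interval includes 0. Without WT 2 the intervals of Atf3 (0.36 to 1.44) and Jun (0.02 to 0.65) do not, before adjustment over all genes.

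Egr1 and Nr4a1 are the zinc finger transcription factor and the orphan nuclear receptor of the group, and Ier2 encodes a small nuclear protein. Egr1 (ENSMUSG00000038418, chromosome 18, 34859823 to 34864984, plus strand) varied most between mice. It measured 32.2, 20.6 and 80.6 CPM in Abca4KO 1, 2 and 3, against 55.9, 85.4 and 37.9 CPM in WT 1, 2 and 3. Abca4KO 3 came close to the highest WT library while Abca4KO 2 was the lowest of all, a 3.91-fold range within Abca4KO, beside 2.25-fold within WT. The log2 fold change was -0.43 (SE 0.50, adjusted p = 0.899 in edgeR), and its 95% interval, -1.61 to 0.75, was the widest of the 10. Leaving out Abca4KO 3, the high library, brought the value to the most negative of its range, -1.18, still without passing. It was -0.08 without WT 2 and -0.08 without Abca4KO 2, and 0.09 without WT 2 and Abca4KO 1.

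Nr4a1 (ENSMUSG00000023034, chromosome 15, 101254269 to 101274795, plus strand) measured 26.0, 21.7 and 32.1 CPM in Abca4KO 1, 2 and 3, against 32.7, 53.3 and 24.4 CPM in WT 1, 2 and 3. WT 2 stood above all other libraries, which lay between 21.7 and 32.7 CPM. Its log2 fold change was -0.47 (SE 0.29, 95% interval -1.14 to 0.20, adjusted p = 0.797 in edgeR), and -0.10 (SE 0.19) without WT 2. Ier2 (ENSMUSG00000053560, chromosome 8, 84661331 to 84662852, minus strand) measured 14.2, 14.3 and 20.7 CPM in Abca4KO 1, 2 and 3, against 13.8, 27.8 and 9.15 CPM in WT 1, 2 and 3. The WT libraries held both its highest and its lowest value, a 3.04-fold range. Its log2 fold change was -0.04 (SE 0.39, 95% interval -0.95 to 0.87, adjusted p = 0.989 in edgeR) and had the opposite sign under 7 of the 16 other settings, reaching 0.52 (SE 0.25) without WT 2.

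Dusp1 and Btg2 encode brakes: DUSP1 is a phosphatase that switches off MAP kinases, and BTG2 slows cell division and promotes the removal of poly(A) tails from mRNAs. Dusp1 (ENSMUSG00000024190, chromosome 17, 26505590 to 26508519, minus strand) measured 47.9, 44.7 and 46.4 CPM in Abca4KO 1, 2 and 3, against 48.7, 67.5 and 38.4 CPM in WT 1, 2 and 3. The Abca4KO libraries differed only 1.07-fold, the narrowest range of the 10 within Abca4KO, and the WT libraries 1.76-fold. The log2 fold change of Dusp1 was -0.15 (SE 0.19, 95% interval -0.60 to 0.29, adjusted p = 0.903 in edgeR), and 0.09 (SE 0.12) without WT 2. Btg2 (ENSMUSG00000020423, chromosome 1, 134075170 to 134079120, minus strand) measured 17.8, 18.5 and 22.5 CPM in Abca4KO 1, 2 and 3, against 20.2, 33.3 and 17.1 CPM in WT 1, 2 and 3. WT 2 was again apart, and the other 5 libraries lay between 17.1 and 22.5 CPM. Its log2 fold change was -0.26 (SE 0.25, 95% interval -0.85 to 0.32, adjusted p = 0.869 in edgeR), and 0.07 (SE 0.16) without WT 2. A missed threshold does not show equal levels. With all libraries in the fit, the 95% interval lay within a 2-fold change in both directions for 4 of the 10 genes, Jun, Ier2, Dusp1 and Btg2.

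Per kilobase of gene length, as the deposited table gives it, Dusp1 had the highest level in both genotypes, 17.2 ± 0.596 CPM per kb in Abca4KO and 19.1 ± 5.47 in WT (SD, n = 3 each). In Abca4KO it was followed by Junb (12.4 ± 2.35), Ier2 (10.8 ± 2.45), Jun (10.3 ± 1.34) and Egr1 (9.92 ± 7.10), whose levels per kb overlapped within 1 SD. Below them came Atf3 (7.67 ± 1.86), Nr4a1 (7.58 ± 1.48) and Btg2 (7.15 ± 0.919), again within 1 SD of one another, then, lower by more than 1 SD at each step, Fos (4.01 ± 0.804) and Fosb (0.205 ± 0.0699). In WT the order of levels per kb after Dusp1 was Junb (14.02 ± 7.53), Egr1 (13.3 ± 5.35), Ier2 (11.1 ± 6.39), Nr4a1 (10.5 ± 4.24), Jun (9.57 ± 2.47), Btg2 (8.58 ± 3.13), Fos (5.96 ± 2.12), Atf3 (5.61 ± 2.59) and Fosb (0.277 ± 0.0296). From Dusp1 down to Atf3 each WT neighbour in that order lay within 1 SD of the next. Of all tested genes, 84.6% had a lower mean level per kb than Dusp1, 55.3% a lower one than Fos and 4.84% a lower one than Fosb.

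With WT 2 included, the 10 genes varied between mice of the same genotype more than most genes did. Their SD of log2 CPM within genotype had a median of 0.44, beside 0.22 over all tested genes, and all 10 lay above that second value. Egr1 had the highest (0.82), above that of 89.5% of tested genes, followed by Ier2 (0.61), Junb (0.57) and Atf3 (0.51). Jun (0.29) and Dusp1 (0.29) had the lowest, above that of 59.8% and 60.5% of tested genes. WT 2 was the highest WT library for 9 of the 10 genes, beside 39.8% of tested genes. The WT libraries ranged wider than the Abca4KO libraries for all but Fosb and Egr1, as for Btg2 with 1.95-fold against 1.26-fold. The SD without WT 2 was not computed. Among genes within 2-fold of the same mean CPM, a comparison chosen after the data were seen, the share with a lower SD ran from 84.3% for Fos to 98.6% for Egr1 in 9 of the genes, but was 18.2% for the rarely counted Fosb. Counting error was at most 8.14% of a value in those 9. For Dusp1 within Abca4KO, the SD between mice (1.61 of 46.3 CPM) was about as large as its counting error of up to 3.54% per library.

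**Figure D3:**
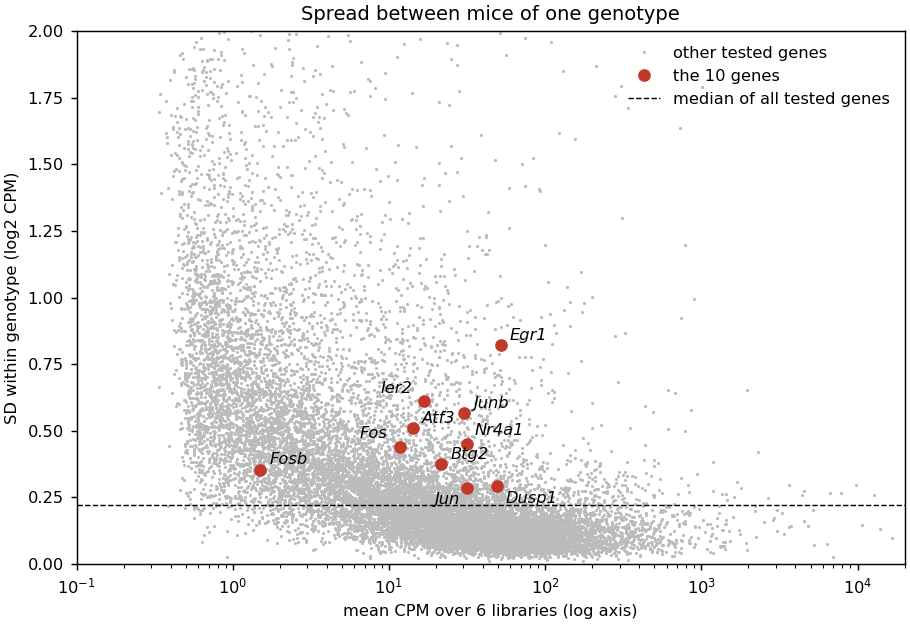
SD of log2 CPM within genotype (vertical axis) against mean CPM over the 6 libraries (horizontal, log axis) for the 10 genes (red) and the other tested genes (grey), with 128 genes beyond the axes not drawn and the median of all tested genes as a dashed line. At their level of expression 9 of the 10 lie in the upper part of the cloud, Egr1 at 0.82 highest, and Fosb does not.

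Part of that spread was shared between the genes. With each gene centred on its mean over the 6 libraries, the mean of the 10 was -0.23, -0.28 and 0.26 on the log2 scale in Abca4KO 1, 2 and 3, against -0.04, 0.64 and -0.35 in WT 1, 2 and 3. WT 2 was above the gene's own mean in 10 of 10 genes and Abca4KO 3 in 9 of 10, whereas Abca4KO 1 was in 0 and WT 3 in 1. WT 2 was the highest library overall for 8 of the 10, where 24.9% of all tested genes had their highest value in it. Within Abca4KO, Abca4KO 3 was highest for 8 of the 10, beside 29.9% of tested genes, and within WT, WT 3 was lowest for 8 of the 10, beside 34.1%. Of the 10, Btg2 followed the mean of the group most closely, with a root mean square (RMS) difference of 0.08 on the log2 scale over the 6 libraries, and Egr1 least, with 0.47. That mean includes the gene compared with it, which lowers the RMS difference of each of the 10.

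**Figure D4:**
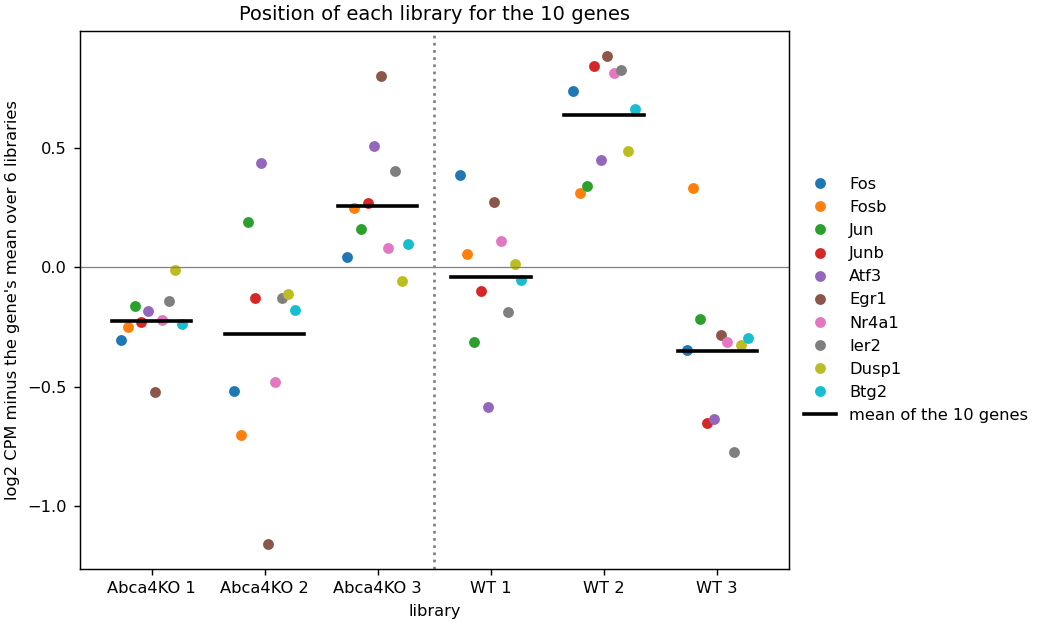
Log2 CPM of each gene minus its mean over the 6 libraries (vertical axis) by library, Abca4KO left of the dotted line and WT right of it, 1 point per gene, with the mean of the 10 genes as a bar. All 10 points are above 0 in WT 2 (bar at 0.64) and 9 of 10 in Abca4KO 3 (bar at 0.26), while Atf3 in Abca4KO 2 lies above 0 although the bar there is at -0.28.

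Some marker lists of other cells moved with the same libraries in part, and others did not. By mean log2 CPM, the Muller glia and astrocyte markers were highest in WT 3 (8.49). The fibroblast and melanocyte markers were highest in Abca4KO 2 (6.79 and 8.39). Mural cell markers were highest in Abca4KO 3 (5.08) and lowest in WT 3 (4.63). Cone photoreceptor markers were highest in Abca4KO 1 (2.78) and lowest in WT 2 (0.93). In WT 2, all 18 interferon response genes had their highest value of the 6 libraries, with a mean level of 6.72 log2 CPM beside 3.09 to 4.11 in the other libraries. The 14 macrophage and microglia markers averaged 6.10, 6.92 and 6.51 log2 CPM in Abca4KO 1, 2 and 3, against 5.96, 6.96 and 5.31 in WT 1, 2 and 3, and summed to between 3795 and 6774 CPM in Abca4KO and between 2267 and 4242 CPM in WT. By mean log2 level WT 2 was highest and WT 3 lowest, as they were for the mean of the 10 genes, but Abca4KO 2, low for the 10 genes, had the highest sum. Most of that sum came from Lyz2 and Ctss (3937 and 1349 CPM in Abca4KO 2). Of these 14 markers 6 had their highest value in WT 2, 10 had a positive log2 fold change (median of the 14, 0.30) and none passed. The 4 negative ones were Csf1r, Ptprc, Aif1 and Cx3cr1. With WT 2 left out, 13 of the 14 were positive (median 0.95) and 0 passed. The 15 endothelial markers averaged 5.39, 5.23 and 5.93 log2 CPM in Abca4KO 1, 2 and 3, against 4.81, 5.30 and 4.56 in WT 1, 2 and 3, with sums of 822 to 1223 CPM in Abca4KO and 504 to 830 CPM in WT. Abca4KO 3 had the highest endothelial level of all, and 15 of 15 markers had a positive log2 fold change (median 0.59), none past the threshold. The 15 rod markers, genes of the neighbouring photoreceptors, summed to 1117 to 3701 CPM in Abca4KO and 748 to 1956 CPM in WT, lowest in WT 2. With the mean rod level as a covariate, the 10 genes had a median log2 fold change of -0.11 and 0 passed in edgeR. The cone marker Cngb3 was at 0 CPM in WT 2, and no other marker of these lists was at 0 in any library. The part of these cells in the levels of the 10 genes was not tested.

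**Figure D5:**
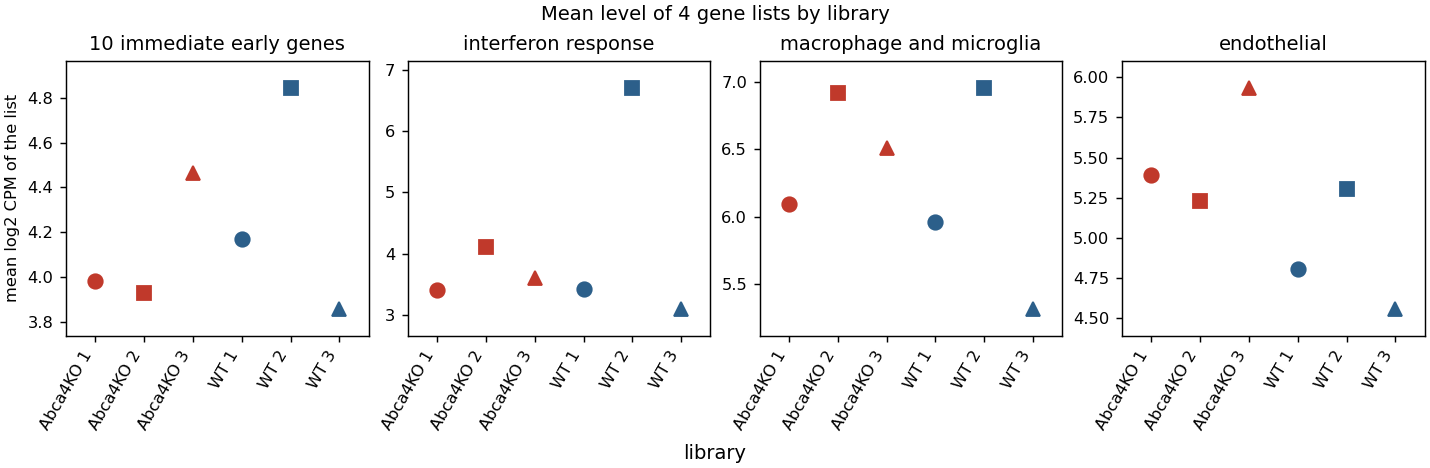
Mean log2 CPM (vertical axis, a separate range in each panel) by library for the 10 genes, 18 interferon response genes, 14 macrophage and microglia markers and 15 endothelial markers, Abca4KO in red and WT in blue. WT 2 is highest in the first 3 panels and Abca4KO 3 in the endothelial panel at 5.93.

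The wider immediate early network, 128 tested genes in 8 lists, also held 0 genes past the adjusted threshold in edgeR and in limma-voom, beside 0.0461% and 0.179% of all genes, and 2 in DESeq2, Thbs1 and Errfi1, beside 0.657% of all genes. At an unadjusted p under 0.05 there were 16 of 128 in edgeR, 39 in limma-voom and 13 in DESeq2, beside 7.02%, 16.9% and 6.4% of all tested genes. Of the 128, 49 had a positive and 79 a negative log2 fold change, and without WT 2 the split was 75 positive and 53 negative. WT 2 held the highest value for 54 of the 128, beside 24.9% of all tested genes.

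Among partners of FOS and JUN, 12 tested genes such as Fosl2, Jund and the small MAF proteins, the median log2 fold change was -0.15, and 0.20 without WT 2. Mafg measured 84.4 ± 4.74 CPM in Abca4KO and 73.6 ± 2.05 CPM in WT, without overlap (SD, n = 3 each, adjusted p = 0.701 in edgeR). The AP-1 subunit gene Fosl2 measured 33.2 ± 3.63 CPM in Abca4KO and 45.5 ± 16.8 CPM in WT (SD, n = 3 each, log2 fold change -0.46), again with WT 2 highest, at 64.7 CPM. Atf7, which encodes an ATF partner, measured 92.6 ± 4.06 CPM in Abca4KO and 105.9 ± 6.66 CPM in WT without overlap. The 6 tested relatives of Egr1 and Nr4a1 and their corepressors had a median of 0.03, and 0.39 without WT 2. Among them Nr4a2, a closely related orphan receptor, measured 4.12 ± 0.749 CPM in Abca4KO and 2.91 ± 0.408 CPM in WT without overlap (SD, n = 3 each), a log2 difference of 0.50 (SE 0.27, adjusted p = 0.761 in edgeR) and the opposite sign to Nr4a1. Nr4a3 and Egr3 overlapped between the genotypes, with log2 fold changes of 0.19 and -0.47.

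MAP kinase feedback, the phosphatases and Sprouty or Spred proteins that act beside Dusp1, had 14 of 14 log2 fold changes below 0 (median -0.20), and 10 of 14 without WT 2 (median -0.12). Over all tested genes, 9047 of 17340 were below 0 with all libraries. Their summed level was 1107 to 1259 CPM in Abca4KO and 1260 to 1349 CPM in WT, ranges that nearly met. Much of that sum was Dusp6 and Dusp4 (means of 431 and 332 CPM), which both overlapped between the genotypes. Errfi1, an inhibitor of the EGF receptor, had the smallest p of the list, at 45.5, 46.3 and 46.8 CPM in Abca4KO 1, 2 and 3, against 59.9, 59.1 and 64.1 CPM in WT 1, 2 and 3. The genotypes were well separated for Errfi1 (log2 fold change -0.40, SE 0.07), but the adjusted p in edgeR was 0.393. Dusp10, a phosphatase of p38 and JNK, measured 18.3 ± 2.34 CPM in Abca4KO and 24.2 ± 3.52 CPM in WT without overlap (SD, n = 3 each, adjusted p = 0.691 in edgeR), and Spry1 overlapped between the genotypes, with a log2 fold change of -0.24. The 18 genes related to Btg2, Ier2 and the mRNA decay factor ZFP36 had a median of 0.07, and 0.20 without WT 2. In that list Btg3 measured 22.8 ± 1.69 CPM in Abca4KO and 18.6 ± 0.644 CPM in WT, and Tob1 92.6 ± 7.67 CPM in Abca4KO and 76.0 ± 12.3 CPM in WT, both without overlap (SD, n = 3 each) and both of the BTG/TOB family. Trib1, a pseudokinase gene, had a log2 fold change of -0.21, also without overlap.

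Of 19 induced effectors, the median was -0.17, and -0.03 without WT 2. Thbs1, which encodes the matrix protein thrombospondin-1, measured 1216, 879 and 1086 CPM in Abca4KO 1, 2 and 3, against 1504, 1755 and 1339 CPM in WT 1, 2 and 3. For Thbs1 the highest Abca4KO library was under the lowest WT one (log2 fold change -0.53, SE 0.15, adjusted p = 0.616 in edgeR). The neurotrophin gene Bdnf (10.3 ± 0.802 CPM in Abca4KO and 14.3 ± 1.05 CPM in WT) and Apold1, an endothelial early gene (16.1 ± 2.86 CPM in Abca4KO and 23.4 ± 3.30 CPM in WT), did not overlap either (SD, n = 3 each). Of 15 other induced regulators, the median was -0.10, and 0.12 without WT 2. Sik1, a kinase that holds back CREB coactivators, measured 25.5 ± 2.08 CPM in Abca4KO and 35.7 ± 7.47 CPM in WT (SD, n = 3 each), a log2 difference of -0.49 (adjusted p = 0.625 in edgeR), and Klf10, a zinc finger factor, had one of -0.39, both without overlap. Id3, an inhibitor of helix-loop-helix factors, had one of 0.52 with overlap.

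The 29 upstream kinases and transcription factors had a median of -0.08, and -0.03 without WT 2. Mapk3, a MAP kinase gene, measured 225.4 ± 26.8 CPM in Abca4KO and 186.9 ± 12.2 CPM in WT with overlap (SD, n = 3 each, adjusted p = 0.701 in edgeR). The CREB coactivator gene Crtc3 had a log2 fold change of -0.22. The 15 heat shock genes had 13 positive values with a median of 0.07, and 11 with a median of 0.19 without WT 2. They were led by the chaperone gene Hsph1 at 62.5 ± 17.6 CPM in Abca4KO and 45.5 ± 4.58 CPM in WT (SD, n = 3 each). Hmox1, the heme oxygenase gene, and Hspa8, a constitutive chaperone gene, had log2 fold changes of 0.39 and 0.17. Over the 8 lists, 20 of 128 genes did not overlap between the genotypes, beside 12.8% of all tested genes.

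The genes whose library pattern was most like the mean of the 10 were not on these lists. Among 12129 further genes of at least 5 CPM, the smallest RMS difference was 0.04 for Dexi, at 17.8, 17.1 and 23.2 CPM in Abca4KO 1, 2 and 3, against 20.1, 30.2 and 15.5 CPM in WT 1, 2 and 3. Rnf31, Myh9, Ets1, Tyk2, Dglucy, Cdkn2d, Mtmr14, Miip and Nans followed, with RMS differences from 0.11 to 0.13, where the median over the genes compared was 0.38. All 10 had their highest value in WT 2, where the mean they were picked to match is also highest, so this follows from the choice. Likeness over 6 libraries is a description of this order of libraries only.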

How the data were processed

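Each library was RNA of the RPE of 1 mouse, isolated with the RNAqueous-Micro kit and made into a library with the NEBNext Ultra RNA kit, per the labels' protocols. The authors deposited raw counts, whole numbers of reads per Ensembl gene with 1 column per library. Per the submitters' processing notes the tools were STAR and HTSeq and the build was mm10, with no version. Neither annotation release nor strand use is given in the sources used here.

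Genes were filtered with filterByExpr (minimum count 10), scaled by TMM and tested, Abca4KO against WT, with edgeR 4.0.16 in R 4.3.3 (2-sided quasi-likelihood test, all 6 libraries, no covariate). P-values were adjusted by Benjamini and Hochberg over all 17340 tested genes, with a threshold of 0.05. The SE is the log2 fold change over the square root of the F statistic. Fold changes use a prior count of 0.125 and log2 CPM a prior count of 1. Counting errors cover sampling of reads only, since reads carry no molecular identifiers. The fit was tested on simulated counts. Alternatives used DESeq2 1.42.0, limma 3.58.1, other scalings and filters, a replicate block, a rod covariate and left-out libraries. Similar transcripts were searched with BLAST 2.17.0: beyond Junos and Prdx2, the closest match was Nr5a1 to Nr4a1, at 75.0% identity over 204 bases.

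The 10 genes and all lists were chosen with earlier results of these data known. In each list of related genes, the 3 tested genes of at least 1 CPM with the smallest p were named, with all that passed, except 1 gene that is not reported here. The 10 genes most like the mean were chosen by RMS difference among genes of at least 5 CPM. The replicate numbers were not treated as pairs in the main fit.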

Additional observations from a re-analysis of the deposited data

How the results depend on the processing

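Under the 16 other settings, the number of the 10 genes past the threshold stayed at 0 except with WT 2 and Abca4KO 1 both left out, where it was 1 (Atf3). For Atf3 those were the highest WT and the lowest Abca4KO library. The number of all tested genes past it was 19 without a low-count filter, 114 with DESeq2, 31 with limma-voom and sample weights, 21 with the rod covariate and 190 with WT 2 and Abca4KO 1 both left out, beside 8. With single libraries left out it ran from 3 to 11. Leaving out WT 1 gave 4, and leaving out Abca4KO 2 or Abca4KO 3 gave 3. The median log2 fold change of the 10 ran from -0.41 without WT 3 to 0.08 without WT 2, and was 0.11 with WT 2 and Abca4KO 1 both left out. The cause of these changes was not tested. Fos, Fosb, Nr4a1 and Atf3 kept their sign under all 16 settings. Jun and Egr1 changed sign under 1, Dusp1 under 2, Btg2 under 3, Junb under 4 and Ier2 under 7.

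With the replicate number as a block, 0 of the 10 genes passed, 9 genes passed in all and the median was -0.17. Over genes, the deviations of same-numbered libraries correlated at 0.17, 0.34 and -0.08 for replicates 1, 2 and 3. Abca4KO 2 correlated best with WT 2, while Abca4KO 1 and 3 correlated best with WT 3 (0.31) and WT 1 (0.12). Whether libraries of the same number share a batch was not tested. With 3 mice per genotype and intervals as wide as -1.61 to 0.75 for Egr1, the 95% intervals of 6 of the 10 genes reach a 2-fold change. For Fosb, counts of 17 to 34 limit the value further.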

Other observations

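Ratios of 2 of the genes within a library, looked at after the data were seen and not tested, set aside the rise and fall that the genes share between libraries. In 9 of 45 pairs the ratios of the genotypes did not overlap, beside 12% of all pairs of tested genes, and 5 of the 9 involved Atf3. Atf3 had 1.32, 2.36 and 1.68 times the CPM of Fos in Abca4KO 1, 2 and 3, against 0.616, 0.991 and 0.994 times in WT 1, 2 and 3. Among the genes of the group, Btg2 was closest to their mean, which includes it. Against Btg2, Atf3 stood at 0.670, 0.992 and 0.858 in Abca4KO 1, 2 and 3, and at 0.446, 0.556 and 0.510 in WT 1, 2 and 3. Fos stood at 0.507, 0.421 and 0.512 of Btg2 in Abca4KO 1, 2 and 3, and at 0.723, 0.561 and 0.513 in WT 1, 2 and 3, with WT 3 and Abca4KO 3 almost equal. The pairs share genes, so the 9 are not separate observations. A ratio shows unequal levels, and not which of the genes differed.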
